A study of Mus musculus with 8 samples.

Results

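The genes described here build and serve the primary cilium, the single antenna-like projection of most cells. They were taken by symbol from a list of 36 genes for intraflagellar transport, the BBSome, the transition zone and ciliary motors. Of these, 35 have a row among the 27998 genes of the count tables. Tctn2, a transition zone gene, was not analysed here for expression. All 35 had at least 50 unique molecular identifiers (UMIs) over both libraries.

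The data are droplet single-cell RNA-seq of CD1 mouse cortex at embryonic day 16.5. One group is the cortex of brains that received a plasmid for ShhN, the signalling fragment of sonic hedgehog, by in utero electroporation at E13.5; it has 4 samples. The other is the cortex of wild type littermates, also 4 samples. Electroporation reaches progenitors lining the ventricle on the side of the electrodes, so that only some cells carry the plasmid, and the labels do not give the promoter of the plasmid or say whether the littermates received another one. Cells could not be traced to their sample, so each group is 1 library here, no test between the groups exists, and intervals cover counting error only. The title places the work around how SHH acts on cortical neural stem cells.

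Radial glia, the stem cells of the embryonic cortex, carry a primary cilium on the surface that faces the ventricle. Proteins are moved along it as trains. IFT-B particles with kinesin-2 (KIF3A, KIF3B) carry cargo to the tip, and IFT-A particles with the dynein-2 motor (DYNC2H1, DYNC2LI1) carry it back. The BBSome moves membrane proteins, and the transition zone gates entry at the base. Hedgehog signalling in vertebrates runs through this organelle: the receptor PTCH1 leaves it when ligand binds, and GLI factors are processed on the way through it.

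The ShhN library held 8075 cells and the wild type library 6924 after 242 and 292 called doublets were removed. Depth reached a median of 6683 UMIs and 2422 genes per cell in the ShhN library, against 6279 UMIs and 2400 genes in the wild type library. The libraries shared 71 cell barcodes, where 75.8 were expected from their sizes. Barcodes with 1 to 50 UMIs, which hold free RNA, gave the 35 genes a summed 695 CPM (counts per 1e6 UMIs; 95% Poisson interval 649 to 744) in the ShhN library and 653 CPM (605 to 704) in the wild type library. These sums are close to those in cells, so a low level of a member in a class can include free RNA, and its part was not tested. Ptch1, the gene of the hedgehog receptor and a known target of the pathway, was at 33.7 CPM over all ShhN cells and 5.36 CPM over all wild type cells.

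Cells were grouped by clustering without the member genes, and clusters were named from marker genes. The radial glia-like cluster (231 ShhN and 175 wild type cells) had all 13 of its markers above the other cells, and Aldoc, Pdpn and Fabp7 were among its 10 leading genes. It also had all 20 of the cell cycle genes above the other cells. Intermediate progenitor-like cells, which descend from radial glia, numbered 1355 and 995. The class has 3 clusters: one led by Tfap2d held 790 ShhN and 124 wild type cells, while the 2 led by genes such as Eomes held 565 and 871 together. The Tfap2d-led cluster had 4 of the 12 markers of the class above the other cells, without Eomes among its leading genes. The Eomes-led clusters had 6 and 10 of the 12. With doublets kept, a Tfap2d-led cluster of 495 ShhN and 79 wild type cells was named migrating neuron-like. So was a cluster of 865 ShhN and 757 wild type cells led by Ulk4, which also leads the Eomes-led cluster with 6 markers. The cluster that kept the intermediate progenitor name held 217 ShhN and 422 wild type cells. The name is thus weakly borne out for most ShhN cells of the class, and for a part of the Eomes-led clusters it depends on the setting. A class called dividing here was led by mitotic genes, with no cell type marker among the 10 leading genes of its clusters. It held 828 ShhN and 115 wild type cells. At the coarser Leiden resolution of 0.5 no cluster had this name. A Top2a-led cluster of 1160 ShhN and 174 wild type cells, with Olig2 among its leading genes, was named glial or olfactory bulb progenitor-like there. Migrating, upper layer and deep layer excitatory neuron-like cells and GABAergic interneuron-like cells made up most of the rest.

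The promoters of 5 members with an X-box are shown because the cilium genes as a set hold this element far more often than other genes. RFX transcription factors bind the X-box, a pair of facing sites, and are known to switch on cilium genes. Sequences are from RefSeq (GRCm38.p6), are written 5′ to 3′ on the strand of the gene, and have the paired sites with the bases between them in capitals. In Ift57, the 5′ stretch in capitals has only the looser form described after the sequences, and the 3′ stretch has the strict form. Bbs7 (chr3:36613474-36613533, minus strand) codes for a BBSome subunit, Ift57 (chr16:49699184-49699256, plus strand) for an IFT-B subunit, and Mks1 (chr11:87853168-87853227, plus strand) for a transition zone protein. Tctn1 (chr5:122264411-122264447, minus strand) and Tctn3 (chr19:40612335-40612394, minus strand) code for tectonic proteins of the transition zone.
Bbs7: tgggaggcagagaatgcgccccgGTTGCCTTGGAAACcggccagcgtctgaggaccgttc
Ift57: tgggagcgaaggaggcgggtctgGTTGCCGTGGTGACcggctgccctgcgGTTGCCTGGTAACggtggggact
Mks1: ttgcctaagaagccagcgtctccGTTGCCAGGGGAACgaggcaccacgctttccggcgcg
Tctn1: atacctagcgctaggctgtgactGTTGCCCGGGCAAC
Tctn3: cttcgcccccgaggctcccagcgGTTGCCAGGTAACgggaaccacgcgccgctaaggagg

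The promoter table, which runs from 250 bases before to 50 after a gene's start, held 32 of the 36 listed genes, Tctn2 among them. The single site GTTGCC, read on both strands, stood in the promoters of 16 of the 32 genes (50%), against 14.1% of all 27025 genes of the table. GTTNCC followed by GGNAAC after 0 to 3 bases, a form that reads alike on both strands, stood in 5 of the 32 (15.6%), against 0.936% of all genes. These are the promoters shown above. Such a box holds GTTGCC itself where the free base of its first site is G or that of its second site is C, so both counts overlap. The looser GTNNCC with GGNNAC, at the same spacing, stood in 10 of the 32 (31.2%), against 4.38% of all genes, and added Bbs1, Bbs4, Ift22, Tctn2 and Wdr19. TGTTTAC, a forkhead site of the kind FOXJ1 binds, was in 0 of the 32 and in 4.05% of all genes. TGGGTGGTC, the GLI site, was in 0 of the 32 and in 0.289% of all genes. Members' promoters had a median GC content of 59.0%, against 52.7% for all promoters of the table. A match is a description of letters and was not tied to binding.

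Radial glia-like cells held more RNA of the cilium genes, as a sum, than any neuron class named above, in both libraries. The 35 genes summed to 969.8 CPM (923 to 1018) in ShhN radial glia-like cells and 895 CPM (847 to 945) in wild type ones. Upper layer neuron-like cells, of the kind born last in the cortex, had 661 CPM (649 to 673) in the ShhN library and 674 CPM (661 to 687) in the wild type library. The intervals of both classes lie apart in each library. The log2 ratio of radial glia-like over upper layer neuron-like cells was 0.55 (0.48 to 0.63) in the ShhN library and 0.41 (0.32 to 0.49) in the wild type library. Cajal-Retzius cell-like clusters were as high, at 981 CPM from 30 ShhN cells and 855 CPM from 70 wild type cells.

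**Figure D1:**
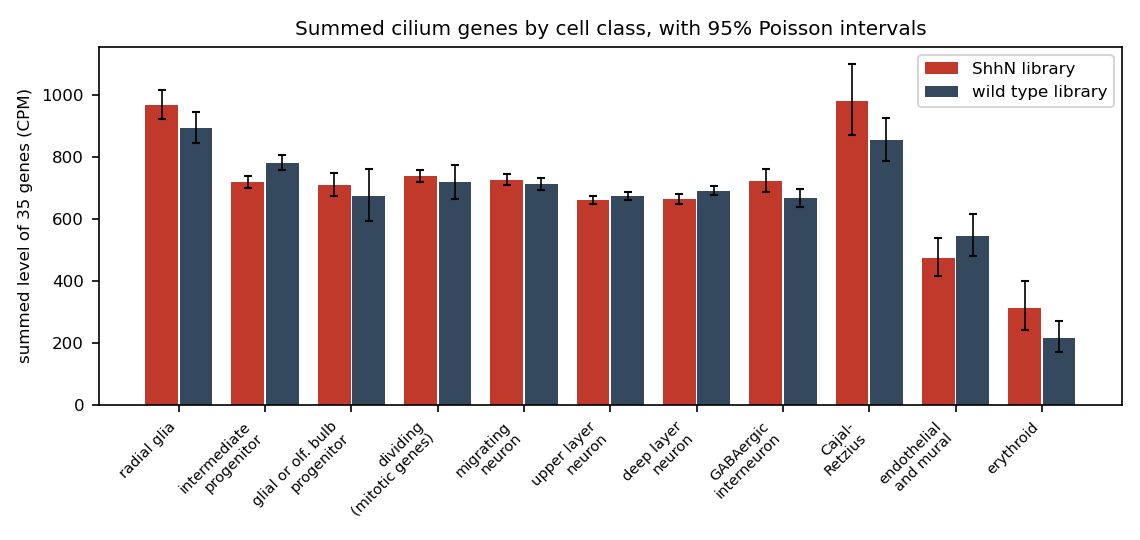
Summed level of the 35 cilium genes in CPM (vertical axis) for each cell class, ShhN library in red left of wild type library in dark blue, with 95% Poisson intervals that cover counting error only. Radial glia-like cells (969.8 and 895 CPM) and the small Cajal-Retzius classes are the tallest pairs, and erythroid-like cells the lowest.

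Members were called higher or lower between 2 classes with at least 50 UMIs over both, a ratio of at least 1.5-fold and a 95% counting interval clear of 1. In the ShhN library, 17 of 30 measured members were higher in radial glia-like than in upper layer neuron-like cells, where 26.9% of all genes were. No member was lower there, against 21.7% of all genes. In the wild type library, 15 of 28 were higher, where 23.9% of all genes were, and 3 were lower, against 22.7% of all genes. The median log2 ratio of the measured members was 1.01 and 0.82 in the ShhN and wild type libraries, and that of all genes was 0.10 and 0.04. Of the members, 15 were called higher in both libraries, and none was called in opposite directions. The shares of all genes for these 2 counts were not computed. The members left out had fewer than 50 UMIs over these 2 classes. With each cell thinned to 4500 UMIs and shallower cells left out, 11 of 22 measured members were higher in the ShhN library, where 22.8% of all genes were. After thinning, 7 of 20 were higher in the wild type library, where 20.9% of all genes were. Lower were 0 of 22 in the ShhN and 3 of 20 in the wild type library, where 21.0% and 20.8% of all genes were. Thinning kept 190 of the 231 ShhN and 149 of the 175 wild type radial glia-like cells. Clusters were formed without the members, but each library's cells share its depth and its free RNA.

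Among the IFT-B genes, Ift74 and Ift80 stood furthest apart. Ift74 (chromosome 4, 94614491 to 94693229, GRCm38, plus strand), whose product pairs with IFT81 to bind tubulin, had 78.4 CPM in ShhN radial glia-like cells and 8.79 CPM in ShhN upper layer neuron-like cells. In the wild type library these levels were 71.7 and 11.4 CPM. The log2 ratios were 3.16 (2.80 to 3.51) and 2.66 (2.29 to 3.02). Both libraries thus show a gap that counting error does not bridge.

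Ift80 (chromosome 3, 68892499 to 69004570, minus strand) codes for an IFT-B subunit whose human counterpart is mutated in a skeletal ciliopathy. It had 24.1 CPM in ShhN radial glia-like cells and 2.47 CPM in ShhN upper layer neuron-like cells. The wild type levels were 15.3 and 2.64 CPM. These rest on 40 and 22 UMIs in the radial glia-like cells of the ShhN and wild type libraries. Other gene models overlap Ift80 (4 models) and Ift74 (1 microRNA model) on the same strand, so a part of their UMIs may be assigned to the wrong model. The same limit holds for Ift81, Bbs12 and Rpgrip1l.

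Ift57, a peripheral IFT-B subunit, had 52.5 CPM in ShhN and 59.9 CPM in wild type radial glia-like cells. Its upper layer levels were 16.9 CPM in ShhN and 14.9 CPM in wild type cells. Its log2 ratios were 1.63 and 2.01. Ift52, Ift22 and Ift88, the last being the gene whose hypomorphic mouse allele first tied cilia to kidney disease, were also called higher in both libraries. Their log2 ratios lay between 0.82 and 1.01 in the ShhN library and between 0.68 and 0.92 in the wild type library. Ift172, which sits at the tip turnaround, was called higher in the ShhN library alone, at 1.61, against 0.75 with an interval that spans 0 in the wild type library. The difference between the libraries was not tested.

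Ift20, Ift27, Ift46 and Ift81 did not follow. Ift20, which also sits at the Golgi and sorts membrane proteins toward the cilium, had 89.3 CPM in ShhN and 100.3 CPM in wild type radial glia-like cells. In upper layer neuron-like cells it had 106 CPM in the ShhN and 113 CPM in the wild type library. Its log2 ratio was -0.24 in the ShhN and -0.17 in the wild type library. The 4 genes had log2 ratios from -0.37 to 0.45 in the ShhN library and from -0.39 to 0.36 in the wild type library, all under 1.5-fold. The 11 IFT-B genes were graded, with Ift81 (0.45 in the ShhN and 0.36 in the wild type library) and Ift22 (1.01 and 0.68) between Ift46 at the low end and Ift74 and Ift80 at the high end.

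The retrograde genes also varied. Ift122, a core IFT-A subunit, had 30.8 and 29.2 CPM in ShhN and wild type radial glia-like cells, and 7.59 and 6.36 CPM in upper layer neuron-like cells. Wdr35 (IFT121), its neighbour in the particle, had log2 ratios of 2.11 in the ShhN and 1.15 in the wild type library. Ift140 was near equal in the 2 classes, at -0.25 and -0.31 in the ShhN and wild type libraries with intervals over 1 unit to either side, and Ift43 was within 1.5-fold in both. Wdr19 had under 50 UMIs over these classes in each library.

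The dynein-2 genes were higher in radial glia-like cells in both libraries. Dync2li1, the light intermediate chain, had 43.4 CPM in ShhN and 34.1 CPM in wild type radial glia-like cells. Upper layer neuron-like cells had 8.37 CPM in the ShhN and 10.0 CPM in the wild type library. Dync2h1, the heavy chain, had log2 ratios of 1.76 and 1.38. The kinesin-2 genes Kif3a and Kif3b had log2 ratios below 0 in both libraries. Kif3a, a motor subunit also used for axonal transport, had 90.5 and 77.3 CPM in ShhN and wild type radial glia-like cells, and 112 and 115 CPM in upper layer neuron-like cells. Kif3b was called lower in wild type radial glia-like cells, at -0.84, while in the ShhN library it had -0.34 (-0.96 to 0.23). Kif7, the tip kinesin that organises GLI proteins, had 5.43 CPM from 9 UMIs in ShhN and 10.4 CPM from 15 UMIs in wild type radial glia-like cells, too few for a call.

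**Figure D2:**
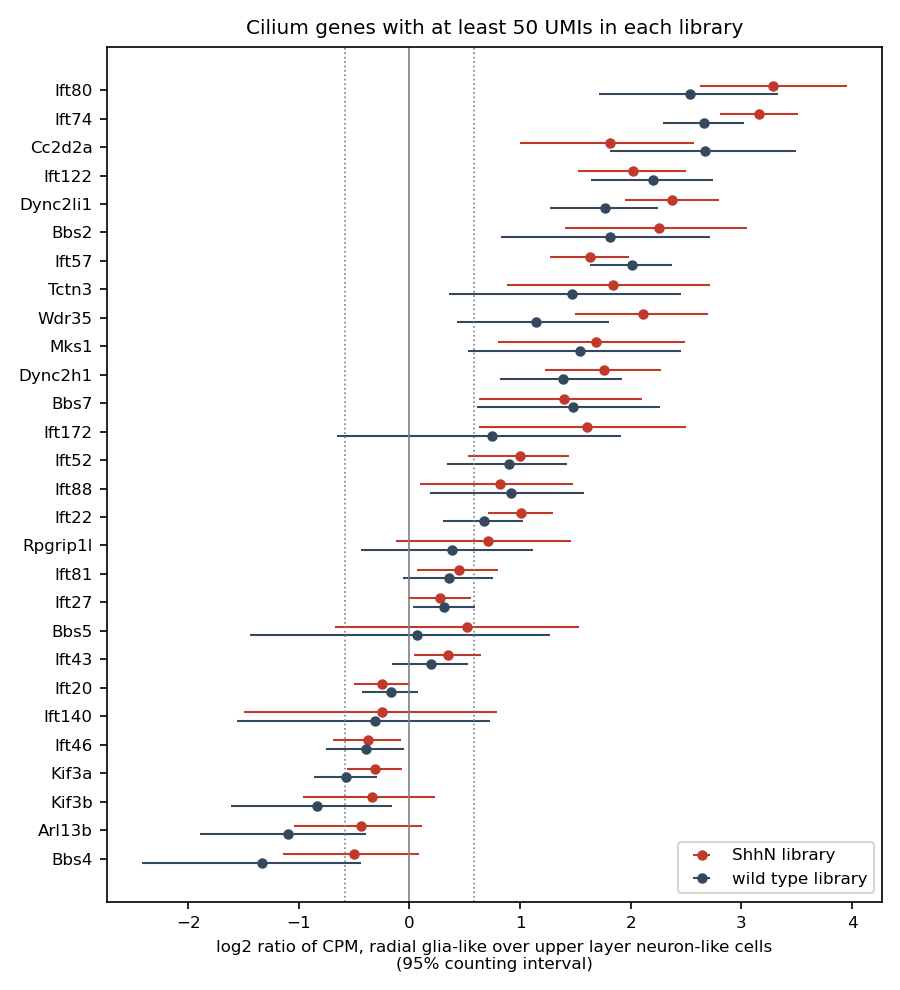
Log2 ratio of CPM in radial glia-like over upper layer neuron-like cells (horizontal axis) for the 28 cilium genes with at least 50 UMIs in each library, ShhN library in red above wild type library in dark blue, with 95% counting intervals. Ift80 and Ift74 lie furthest to the right in the ShhN library, and Cc2d2a, Ift74 and Ift80 in the wild type library, while Bbs4 and Arl13b lie furthest to the left, and dotted lines mark 1.5-fold.

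Among BBSome genes, Bbs2 and Bbs7 were called higher in radial glia-like cells in both libraries. Bbs2 had log2 ratios of 2.25 in the ShhN and 1.81 in the wild type library, and Bbs7 had 1.39 and 1.47. Bbs4, whose product completes the BBSome at satellites around the centrosome, went the other way in the wild type library, at -1.34 (-2.41 to -0.43), and had -0.50 (-1.15 to 0.09) in the ShhN library. It had 15.1 and 6.96 CPM in ShhN and wild type radial glia-like cells, from 25 and 10 UMIs. Bbs9 was called higher in the ShhN library, at 1.19, and had too few UMIs for a call in the wild type library, 5 in radial glia-like and 35 in upper layer neuron-like cells.

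Of the 5 transition zone genes, Cc2d2a, Mks1 and Tctn3 were called higher in radial glia-like cells in both libraries. Cc2d2a, the gene behind a part of Joubert and Meckel syndromes in people, had 12.1 and 14.6 CPM in ShhN and wild type radial glia-like cells, and 3.43 and 2.30 CPM in upper layer neuron-like cells. Mks1 had log2 ratios of 1.68 and 1.54, and Tctn3 of 1.84 and 1.47. Rpgrip1l did not pass the rule in either library, at 0.71 and 0.39 in the ShhN and wild type libraries. Tctn1 had 11 UMIs in the ShhN and 13 UMIs in the wild type library over both classes, too few for a call. Arl13b, a GTPase of the ciliary membrane, was called lower in wild type radial glia-like cells, at -1.10 with 17 UMIs, and had -0.44 in the ShhN library.

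The measured members with the strict X-box (4 in each library: Bbs7, Ift57, Mks1 and Tctn3) were all called higher in radial glia-like cells. Of all genes, 26.9% in the ShhN and 23.9% in the wild type library were called higher. The median log2 ratio of the members with the strict box was 1.66 in the ShhN and 1.51 in the wild type library. Members with a promoter in the table but no strict box had medians of 0.64 in the ShhN library (10 of 22 called higher) and 0.35 in the wild type library (8 of 20). Ift80, Ift81, Ift122 and Dync2li1 have no promoter in the table and fall outside these splits. In the ShhN library their log2 ratios were 3.29, 0.45, 2.02 and 2.38. With the looser box the medians were 1.39 and 1.47, for 7 and 6 genes in the ShhN and wild type libraries, and the lowest of these genes, Bbs4, had -0.50 and -1.34. Members without the looser box had medians of 0.71 in the ShhN and 0.35 in the wild type library. The single site GTTGCC set members less apart: in the ShhN library the median was 1.11 with it (8 of 14 called higher) and 0.85 without it (6 of 12). In the wild type library it was 0.92 with the site (7 of 13) and 0.39 without it (5 of 11). Ift74, with one of the widest gaps in both libraries, held neither box in its window. These splits were read after the members' levels were known, and they are a description.

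Of the RFX genes, Rfx4 stood apart most between classes. This brain form of the family had 34.4 CPM in ShhN radial glia-like cells and 42.5 CPM in wild type ones, and at most 0.36 CPM in the excitatory neuron classes of either library. Glial or olfactory bulb progenitor-like cells had it too, at 29.0 CPM in 310 ShhN and 56.2 CPM in 49 wild type cells. Rfx3 was level across radial glia-like and upper layer neuron-like cells in the ShhN library, at 28.3 and 28.7 CPM, while the wild type library had 27.2 and 37.3 CPM in these classes. Rfx7 had 43.4 CPM in ShhN and 46.0 CPM in wild type radial glia-like cells, and 28.7 CPM in ShhN and 32.8 CPM in wild type upper layer neuron-like cells. Rfx1, Rfx2 and Rfx5 had at most 13 UMIs in radial glia-like cells of either library. Foxj1, the switch for motile cilia, had 9.65 CPM from 16 UMIs in ShhN and 5.57 CPM from 8 UMIs in wild type radial glia-like cells. The 22 listed motile cilium genes summed to 28.9 CPM from 48 UMIs in ShhN and 17.4 CPM from 25 UMIs in wild type radial glia-like cells, and none reached 50 UMIs there.

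Along the path from radial glia-like to intermediate progenitor-like, migrating and upper layer neuron-like cells, 12 of 34 members with at least 50 UMIs over these classes had a lower level at every step in the ShhN library, where 18.6% of all genes did. The wild type library had 11 of 33, where 16.4% of all genes did so. The level was higher at every step for 2 members in the ShhN library and 1 in the wild type library, where 12.8% and 13.1% of all genes did so. The 6 with a lower level at every step in both libraries were Ift57, Ift74, Bbs12, Kif7, Dync2h1 and Dync2li1, of which Bbs12 (12 and 7 UMIs in ShhN and wild type radial glia-like cells) and Kif7 rest on few UMIs. Ift74 had 78.4, 21.2, 12.8 and 8.79 CPM along this path in the ShhN library, and 71.7, 33.2, 11.5 and 11.4 CPM in the wild type library. The last 2 wild type levels lie within counting error of each other. Intermediate progenitor-like cells were also set against upper layer neuron-like cells. In the ShhN library, 12 of 32 measured members were higher in the first class, where 16% of all genes were, and 0 were lower, against 14.3%. In the wild type library, 10 of 32 were higher, where 18% of all genes were, and 0 lower, against 16.7%. The 8 called in both were Ift52, Ift74, Ift80, Bbs2, Bbs9, Cc2d2a, Dync2h1 and Dync2li1. Shares of all genes called in both libraries, or with a lower level at every step in both, were not computed. Among the 7 classes with at least 100 cells in both libraries, 22 of 35 members with at least 50 UMIs over them had their highest level in radial glia-like cells in the ShhN library, where 29.3% of all genes did. The wild type library had 19 of 33, where 24.3% of all genes did so. Of the members highest there, 4 in the ShhN and 3 in the wild type library had fewer than 10 UMIs in radial glia-like cells.

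**Figure D3:**
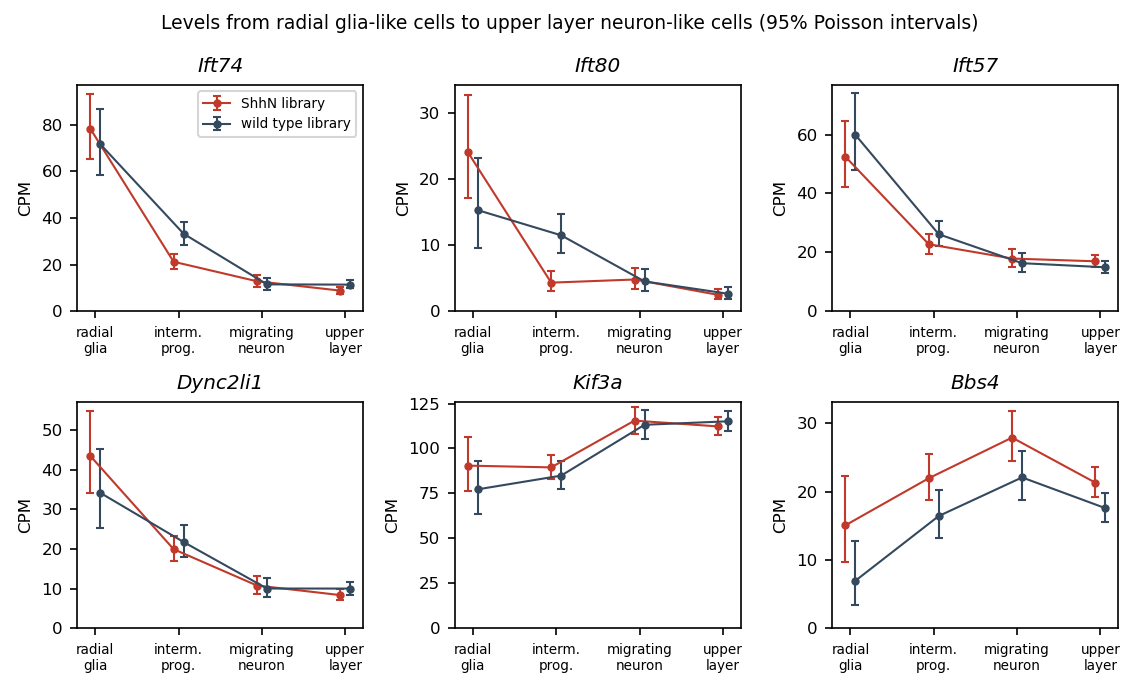
CPM (vertical axis, from 0) of 6 cilium genes in radial glia-like, intermediate progenitor-like, migrating and upper layer neuron-like cells (horizontal axis), ShhN library in red and wild type library in dark blue, with 95% Poisson intervals. Ift74, Ift80, Ift57 and Dync2li1 are highest in radial glia-like cells in both libraries, while Kif3a and Bbs4 are higher in migrating neurons.

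The dividing class had less of the cilium genes than radial glia-like cells, with a sum of 739 CPM in the ShhN and 719 CPM in the wild type library. Intermediate progenitor-like cells had 720 and 782 CPM, and migrating neuron-like cells 727 and 714 CPM. Cells take the cilium down around mitosis, and its part in these levels was not tested. In the ShhN library, 8 of 23 measured members were lower in dividing than in radial glia-like cells and 1 was higher, where 19.2% and 14.8% of all genes were. The 8 were Ift22, Ift57, Ift74, Ift80, Ift122, Cc2d2a, Dync2li1 and Wdr35, and the higher one was Ift27. The wild type library, with 115 dividing cells, gave log2 ratios below 0 for all 8, from -1.80 (Cc2d2a, 4 UMIs in dividing cells) to -0.35 (Wdr35). Its intervals lay below 0 for Cc2d2a, Dync2li1, Ift22, Ift57 and Ift74. These genes were picked by their calls in the ShhN library, and the numbers of genes called in the wild type library are not given here. Ift46 went against them there, with a log2 ratio of 0.77. Dync2li1 had 14.5 CPM in dividing and 43.4 CPM in radial glia-like cells of the ShhN library, against 11.5 and 34.1 CPM in the wild type library. These 2 classes differ in cell type as well as in cycle phase, which cannot be told apart here.

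Radial glia-like cells were also split by whether they had a UMI of the proliferation genes Mki67 or Top2a, which does not give a cell's cycle phase. Such a UMI was in 39.8% of ShhN and 42.9% of wild type radial glia-like cells (median 6171 and 6960 UMIs). In upper layer neuron-like cells, which do not divide, it was in 4.15% of ShhN and 1.71% of wild type cells (median 7391 and 6917 UMIs). The 35 genes summed to 1002 CPM in 92 ShhN cells with such a UMI and 939.6 CPM in 139 without, a log2 ratio of 0.09 (-0.05 to 0.24). In the wild type library they had 898 CPM in 75 cells with and 892 CPM in 100 without, a ratio of 0.01 (-0.15 to 0.17). None of the 12 and 9 measured members passed the rule in the ShhN and wild type libraries, where 7.93% and 6% of all genes were higher and 3.02% and 3.6% lower. Cells with such a UMI were deeper, with a median of 7636 against 5592 UMIs in the ShhN library. In intermediate progenitor-like cells the same split gave -0.07 (-0.21 to 0.08) in the ShhN library, with 0 of 17 members past the rule, where 2.09% of all genes were higher and 2.23% lower. The wild type library gave -0.02 (-0.21 to 0.17), with 1 of 18 lower, Ift81 from 3 UMIs in 49 cells, where 1.23% of genes were higher and 1.83% lower.

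The ShhN library was close to the wild type library in the cilium genes over all cells. The 35 members summed to 699.9 CPM (693 to 707) in ShhN cells and 702 CPM (694 to 709) in wild type cells, a log2 ratio of -0.00 (-0.02 to 0.02). One member, Bbs10, passed the rule as higher, with 71 UMIs in ShhN and 38 UMIs in wild type cells and a log2 ratio of 0.60 (0.01 to 1.21); 5.33% of all 13032 measured genes were higher. No member was lower, where 6.65% of all genes were. Member medians were 0.04, against -0.08 over all genes. BBS10 is a chaperonin-like protein that helps to assemble the BBSome.

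The 3 highest ratios belonged to Bbs10, Bbs4 (0.28, 0.15 to 0.42) and Cc2d2a (0.28, -0.01 to 0.58). Bbs4 had 19.8 CPM in ShhN cells and 16.2 CPM in wild type cells. The 3 lowest were Rpgrip1l (-0.34, -0.54 to -0.14), Ift140 and Wdr19 (both -0.23). Rpgrip1l had 7.31 CPM in ShhN and 9.25 CPM in wild type cells. By group, the 5 IFT-A genes summed to 81.4 CPM in ShhN and 74.8 CPM in wild type cells. Of these sums Ift43 alone held 55.6 and 47.1 CPM, with a log2 ratio of 0.24. The rest of the group did not follow it: Ift122 had 0.02, Wdr35 -0.12, and Ift140 and Wdr19 both -0.23. The 3 kinesins summed to 119.5 CPM in ShhN and 132 CPM in wild type cells, of which Kif3a held 98.8 and 108 CPM. The 6 BBSome genes summed to 39.3 CPM in ShhN and 34.8 CPM in wild type cells, a log2 ratio of 0.18 (0.08 to 0.27). Arl13b had 21.2 CPM in ShhN and 24.7 CPM in wild type cells, a log2 ratio of -0.22 (-0.33 to -0.10). All of these are under 1.5-fold. Weighting ShhN class levels to the class shares of the wild type library gave a log2 ratio of the sum of -0.02, and turned Ift74 to -0.08, from 0.21 as measured.

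**Figure D4:**
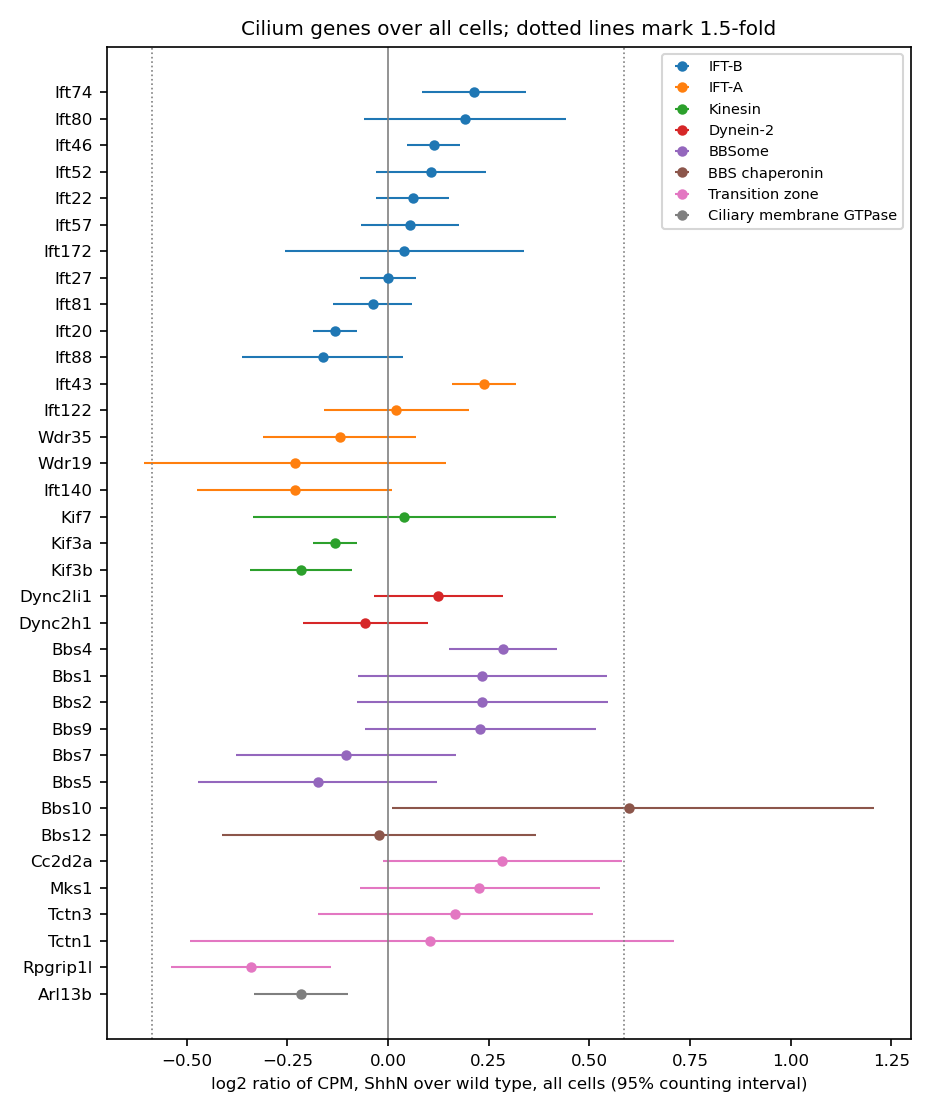
Log2 ratio of CPM, ShhN over wild type, over all cells (horizontal axis) for the 35 cilium genes, coloured by complex, with 95% counting intervals. All points but Bbs10 (0.60) lie inside the dotted 1.5-fold lines, and Rpgrip1l (-0.34) is the furthest to the left.

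In radial glia-like cells, which line the ventricle, 0 of 15 measured members passed the rule in either direction, where 3.43% of 6614 genes were higher and 3.25% lower. No p-value exists for this count, and the other 20 members had fewer than 50 UMIs. The summed ratio was 0.12 (0.01 to 0.22). The 3 highest were Ift80 (0.65, -0.13 to 1.48), Ift22 (0.43, -0.00 to 0.86) and Wdr35 (0.40, -0.40 to 1.22), and the 3 lowest were Ift27 (-0.23), Ift57 (-0.19) and Ift20 (-0.17). Ift22 had 71.2 CPM in ShhN and 52.9 CPM in wild type cells, from 118 and 76 UMIs. Ptch1 in the same cells had 95.3 CPM in the ShhN and 9.75 CPM in the wild type library, a log2 ratio of 3.29 (2.50 to 4.19). Gating cells by marker UMIs instead turned the summed ratio to -0.09.

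In intermediate progenitor-like cells, 2 of 26 measured members were lower, where 6.96% of all genes were, and 0 were higher, against 2.98%. Ift80 had 4.32 CPM in ShhN and 11.5 CPM in wild type cells, from 34 and 63 UMIs (-1.41, -2.06 to -0.79). Ift74 had 21.2 CPM in ShhN and 33.2 CPM in wild type cells (-0.65, -0.96 to -0.34). The makeup of this class differs, since the Tfap2d-led cluster holds 790 of the 1355 ShhN cells and 124 of the 995 wild type cells. In the Eomes-led clusters alone, Ift80 was still called lower at -1.27 (-2.17 to -0.45), and Ift74 was not, at -0.33. Joining the dividing cells to this class gave -0.41 for Ift80 and -0.00 for Ift74, and marker gates gave -0.28 and -0.03. The other 24 measured members included Ift52, at -0.49 (-0.78 to -0.19).

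In the other classes, calls were single genes. Ift74 was higher in dividing cells, with 45.2 CPM in ShhN and 28.3 CPM in wild type cells, from 315 and 27 UMIs (0.68, 0.11 to 1.30); 2.3% of all genes were higher there and 4.64% lower. Ift88 was lower in migrating neuron-like cells, with 6.95 and 10.5 CPM in ShhN and wild type cells (-0.59, -1.11 to -0.07), where 4.27% of all genes were lower and 1.49% higher. Ift43 was higher in GABAergic interneuron-like cells, with 47.5 CPM in ShhN and 24.5 CPM in wild type cells (0.95, 0.49 to 1.42), against 4.99% of genes higher and 5.48% lower. The class has 2 clusters: one led by Nxph1 and Sst held 239 ShhN and 602 wild type cells, and one led by Cxcl14 and Htr3a held 173 and 180. Clustering without cell cycle genes gave 0.01 for Ift43 there. Of 32 and 31 measured members in upper and deep layer neuron-like cells, 0 passed the rule, where 1.34% and 0.668% of genes were higher and 3.94% and 3.89% lower. Added over all 7 classes, TMM scaling gave 3 higher and 1 lower calls, against 2 higher and 3 lower as measured. A gene counts once per class in these numbers, so Ift74 is in both directions as measured.

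Shh UMIs allowed a split inside the ShhN library. They were in 408 of 4777 ShhN excitatory neuron-like cells (8.54%) and in 0 of 4597 wild type ones, which allows a share of up to 0.0653% there. Whether a Shh UMI came from the plasmid was not tested. Excitatory neuron-like cells with at least 3 Shh UMIs (262 cells) had a summed 664 CPM of the cilium genes, against 679.6 CPM in 4369 cells without a Shh UMI, a log2 ratio of -0.03 (-0.11 to 0.04). Ift22 (23.9 against 38.7 CPM) and Ift74 (7.04 against 11.9 CPM) were lower, out of 33 measured, where 3.04% of all genes were lower and 1.72% higher. The Ift74 value rests on 15 UMIs, and 0 members were lower when cells with 1 or more Shh UMIs were taken. Upper layer neuron-like cells made up 184 of the 262 cells with such UMIs and 1907 of the 4369 without. Within that class 0 of 25 measured members were called, where 1.86% of all genes were higher and 1.95% lower. Within migrating neuron-like cells 0 of 17 were higher and 1 lower, where 2.46% and 1.61% of all genes were. Within deep layer neuron-like cells 1 of 21 was higher and 1 lower, where 2.22% and 1.96% of all genes were.

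Other cilium genes were read from 10 lists of 118 entries. Taking all cells together, 9 of 100 measured genes of these lists were higher in the ShhN library and 0 were lower, where 5.33% of all genes were higher and 6.65% lower. Among 10 genes for taking down the cilium, 4 of 9 measured were higher: Aurka (20.3 and 5.98 CPM in ShhN and wild type cells), Plk1 (16.9 and 4.76 CPM), Nek2 (6.58 and 2.17 CPM) and Nde1 (21.8 and 11.2 CPM). All 4 also act in mitosis, and dividing cells were 10.3% of ShhN and 1.66% of wild type cells. Within radial glia-like cells only Plk1 of these passed the rule, at 0.63 (0.16 to 1.12), while Aurka had 0.37, Nde1 -0.23 and Nek2 -0.63. Of 9 hedgehog components that pass through the cilium, 4 were higher over all cells: Ptch1 (2.65), Gli2 (1.26), Evc (1.01) and Gli1, which had 193 UMIs in ShhN and 4 UMIs in wild type cells (5.29, 3.91 to 7.18). Within radial glia-like cells 4 of the 9 were measured, all with ratios above 1. Only Ptch1 passed the rule there, where 3.43% of all genes were higher. Glial or olfactory bulb progenitor-like cells were 3.84% of ShhN and 0.708% of wild type cells. The part of class makeup in the all-cell ratios was not tested. Sstr3, a receptor of neuronal cilia, had 69 UMIs in ShhN and 36 UMIs in wild type cells (0.64, 0.03 to 1.26). The remaining lists, which hold other IFT, BBS, transition zone, motor, basal body, motile cilium and RFX genes, had 0 calls over all cells. Their 1 call among radial glia-like cells was Ccp110, a cap of the mother centriole, with 12.1 CPM in ShhN and 23.0 CPM in wild type cells. Measured there were 3 other IFT, 6 BBS, 11 transition zone, 7 motor, 10 basal body, 0 motile cilium and 3 RFX genes. Of all genes, 3.25% were lower in these cells.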

How the data were processed

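Single-cell libraries of 4 ShhN and 4 wild type samples were deposited as counts of UMIs per gene and barcode, not normalized, in 1 table per group. The submitters' processing notes name mm10, Seurat 3, Cell Ranger and StringTie, without the role of each. The tables carry only experimental and control prefixes, matched to the ShhN and wild type titles. The members and lists were chosen with earlier results of these data known.

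A barcode counted as a cell with 2290 (ShhN) or 2333 (wild type) UMIs, which is 10% of the 99th percentile among the 3000 largest barcodes, with 800 or more genes and no more than 10% mitochondrial UMIs. Doublets (2.91% and 4.05% of barcodes) were called by scrublet (scanpy 1.11.5, expected rate 6%) and removed. Clustering used 2000 variable genes without members, hedgehog and other cilium list genes, globins, mitochondrial, Xist and Y-linked genes, 30 components, 15 neighbours and Leiden resolution 1, giving 25 clusters. Names came from 17 marker lists; the scoring was adjusted after clusters were seen, and the authors may have named cells otherwise. Sums of UMIs per class were scaled to CPM. Intervals are exact at 95%. TMM factors came from edgeR 4.0.16. On simulated data, all 200 genes changed 3-fold were recovered, over all cells and in radial glia-like cells, and 0.453% and 1.89% of unchanged genes were called. The changed genes were drawn from those with at least 200 UMIs, and counts varied by counting error alone. Changed genes with fewer UMIs, smaller folds and variation between libraries were not simulated. Named genes are the members, list genes past the rule, RFX genes, Foxj1 and the split genes; the 3 highest and lowest members get full values. Gene coordinates are from GENCODE on GRCm38, promoters from RefSeq.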

Additional observations from a re-analysis of the deposited data

Results flagged for a closer look

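The summed cilium genes moved in opposite directions in 2 neighbouring classes. Their log2 ratio, ShhN over wild type, was 0.12 in radial glia-like cells and -0.12 in intermediate progenitor-like cells. Marker gates turned the radial glia-like value to -0.087, and TMM scaling brought the intermediate progenitor-like value to -0.023. Ift74 did so as well, at 0.68 in dividing cells and -0.65 in intermediate progenitor-like cells. With 1 library per group neither difference between classes was tested. Intermediate progenitor-like cells of the libraries came mostly from different clusters, and the part of this in either result was not tested.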

How the results depend on the processing

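No paired analysis was possible because cells could not be traced to the 4 numbered samples of a group. Counting error alone is covered, embryos and electroporations cannot be compared, and members under 50 UMIs in a class could not be read. TMM scaling moved the median of all genes by 0.12 in dividing and 0.11 in deep layer neuron-like cells. Under it the summed ratio was 0.088 over all cells, -0.023 in intermediate progenitor-like, 0.16 in dividing and 0.11 in migrating neuron-like cells. It was 0.050 in upper layer and 0.051 in deep layer neuron-like cells, the last against -0.058 as reported. Over the classes 1 call was lower under TMM. Counts over the classes add the calls of the 7 classes, so a gene can count more than once. For these counts and those over all cells, the share of all genes under each setting was not computed. Marker gates turned the radial glia-like sum to -0.087 and Ift27 in intermediate progenitor-like cells to 0.18; joining dividing cells gave Ift27 0.17. With a UMI threshold of 20% the migrating sum was -0.034, and 8 calls were higher and 5 lower over the classes. With doublets kept, the intermediate progenitor-like sum was -0.18, the migrating sum -0.038 and Bbs4 in intermediate progenitor-like cells -1.04; in the Eomes-led clusters Bbs4 was -0.18. Leiden resolution 2 gave -0.060 and -0.033 for the same 2 sums. Clustering without cell cycle genes gave -0.034 for the migrating sum and 1 higher call over the classes. Thinning to 4500 UMIs left 0 members higher over all cells, 5 lower calls over the classes and a GABAergic sum of 0.23. It left 11 ShhN and 7 wild type members higher in radial glia-like than in upper layer neuron-like cells, from fewer UMIs and fewer cells. A minimum of 200 UMIs left 0 higher over all cells, and 1 higher and 1 lower over the classes; no minimum gave 5 higher. At 2-fold 0 were higher over all cells, and 0 higher and 1 lower over the classes. Class shares of the wild type library turned Ift74 over all cells to -0.085. With at least 2 Mki67 or Top2a UMIs the wild type intermediate progenitor-like ratio was 0.27. In the Shh split, 0 members were lower at 1 or more Shh UMIs and 1 after thinning. Of the other lists, 0 were higher and 0 lower in radial glia-like cells at 200 UMIs. In the 200 bases before the start, 25.0% of members and 9.91% of all genes held GTTGCC. The cause of these changes was not tested.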
